A study of Mus musculus with 9 samples.

Results

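Misfolded proteins of the endoplasmic reticulum (ER) are returned to the cytosol and degraded there by ER-associated degradation (ERAD). The 9 genes described here encode the ubiquitin ligase Syvn1 (also known as Hrd1) and the proteins that work with it at the ER membrane: Sel1l, Herpud1, the derlins Derl1, Derl2 and Derl3, the ubiquitin-conjugating enzymes Ube2j1 and Ube2g2, and the ATPase Vcp (p97). They were chosen by gene symbol and are 9 of the 46958 genes in the count table. All 9 passed the filter on low counts, as did 14199 genes in all.

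RNA sequencing was performed on plasma cells taken with beads against CD138 from the spleens of mice that had not been immunized. Each of the 9 libraries came from the spleen of 1 mouse aged 3 months, on a mixed C57/BL6x129/SVxBALB/c background, and the bead-selected fraction was more than 80% pure per the labels. The study asks how toxic a free antibody light chain is to the plasma cells that make it when the chain comes from a case of light chain deposition disease (LCDD), in which such chains accumulate in tissues. There were 3 mice of each genotype: kFRA, which the labels tie to LCDD, DH-LMP2A and wild type (WT). LMP2A is an Epstein-Barr virus protein that can stand in for signals of the B cell receptor. Neither the alleles behind these names, nor the promoter of any transgene, nor whether kFRA mice also carry DH-LMP2A is described in the labels. Heavy-chain constant-region genes took 0.883 to 0.968% of the counts in kFRA and 1.09 to 1.16% in DH-LMP2A, against 21.9 to 27.1% in WT, so the first 2 genotypes shared a near loss of heavy-chain transcripts.

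In ERAD, lectins and mannosidases of the ER lumen pick out misfolded glycoproteins and hand them to Sel1l, which holds them at Syvn1. Syvn1 and the derlins move the protein across the membrane, E2 enzymes and Syvn1 attach ubiquitin to it, and Vcp pulls it out for the proteasome. Plasma cells secrete large amounts of antibody and need this pathway, and several of its genes are known targets of the unfolded protein response (UPR), whose factors ATF6 and XBP1 act at ER stress response elements in promoters.

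The promoters shown are those of the 3 genes whose levels varied most over the 9 libraries, and each holds such an element. In the RefSeq windows of GRCm38.p6, which run from 250 bases before to 50 after a gene's start, 7 of the 9 genes had an entry. The element ERSE (CCAAT, 9 bases of any kind, CCACG) was found in Syvn1 and Derl3, and ERSE-II (ATTGG, 1 base of any kind, CCACG) in Herpud1. Both strands were searched. The 250 bases before the start are given 5′ to 3′, with the element in capitals.
Syvn1, chr19:6046326-6046575, plus strand: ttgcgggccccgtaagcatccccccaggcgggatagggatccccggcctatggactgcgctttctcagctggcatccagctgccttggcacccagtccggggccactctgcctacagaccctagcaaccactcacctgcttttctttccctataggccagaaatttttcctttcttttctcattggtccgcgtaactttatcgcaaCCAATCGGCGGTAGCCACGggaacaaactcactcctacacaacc
Herpud1, chr8:94386179-94386428, plus strand: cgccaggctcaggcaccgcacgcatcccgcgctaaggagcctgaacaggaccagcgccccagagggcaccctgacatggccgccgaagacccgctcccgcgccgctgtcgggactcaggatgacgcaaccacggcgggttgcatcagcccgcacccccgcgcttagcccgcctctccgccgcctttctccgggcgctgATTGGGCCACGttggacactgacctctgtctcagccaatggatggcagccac
Derl3, chr10:75893148-75893397, plus strand: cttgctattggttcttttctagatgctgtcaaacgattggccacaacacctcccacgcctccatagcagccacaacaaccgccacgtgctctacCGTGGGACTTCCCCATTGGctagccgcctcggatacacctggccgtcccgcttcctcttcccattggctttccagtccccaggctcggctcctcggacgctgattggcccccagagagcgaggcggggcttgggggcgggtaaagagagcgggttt

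The element lies at bases −44 to −26 of Syvn1 and −52 to −42 of Herpud1, both on the strand of the gene, and at −156 to −138 of Derl3 on the other strand, where it reads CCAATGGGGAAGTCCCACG. ERSE was present in 39 of 32851 RefSeq windows of the same length (0.119%) and ERSE-II in 12 (0.0365%). The shorter pieces were common: CCAAT, which is part of ERSE and, read on the other strand as ATTGG, of ERSE-II, was in 37.4% of windows. CCACG, part of both elements, was in 32.8%, and ACGTG, a core shared by sites of XBP1 and ATF6, in 19.6%. Neither ERSE nor ERSE-II was in the windows of Sel1l, Derl2, Ube2j1 or Vcp, which says only that these letters are not there. A match is a description of the sequence, and binding was not measured.

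Total counts were 15449026 to 17822827 in the kFRA libraries, 18484303 to 20782477 in DH-LMP2A and 20159149 to 21558128 in WT, so that 3 counts, the limit of detection used here, equal 0.139 to 0.194 CPM. CPM is a gene's count scaled to a common library total, here with TMM (trimmed mean of M values) adjustment between libraries. The lowest value of any of the 9 genes in a library, 34.5 CPM for Ube2g2, was far above this. Of 8 plasma cell markers all were detected in each library, with Jchain at 14700 to 38600 CPM and Sdc1, which encodes CD138, at 302 to 693 CPM. Their sum, most of it from Jchain, was 20400 to 32100 CPM in kFRA, 34100 to 47200 CPM in DH-LMP2A and 18900 to 24100 CPM in WT, highest in all 3 DH-LMP2A libraries. Markers of other spleen cells were present too. Summed over 7 erythroid genes they reached 1090 to 2580 CPM in kFRA and 2420 to 12800 CPM in DH-LMP2A, but 37.3 to 325 CPM in WT. Summed over 8 genes each, myeloid markers were at 772 to 1380, 462 to 1440 and 1850 to 3170 CPM in kFRA, DH-LMP2A and WT, B cell markers at 232 to 291, 415 to 590 and 333 to 658 CPM, and T cell markers at 77.3 to 94.2, 105 to 152 and 90.5 to 151 CPM. None of these markers was at 0 in a whole genotype. In such a mixture of cells, fewer cells of a type and less RNA per cell cannot be told apart.

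All 9 genes had their highest mean TMM-scaled CPM in kFRA, but on library size alone Derl1 (−0.01) and Ube2j1 (−0.13) were not higher there than in DH-LMP2A. Against DH-LMP2A, 1 of them rose past the threshold, an adjusted p under 0.05 in edgeR's quasi-likelihood test, and none fell, beside 1.73% of all tested genes that were called higher and 3.3% called lower. The 9 log2 fold changes ran from 0.02 to 1.12 with a median of 0.43, while the median over all genes was −0.005. Against WT, 2 of the 9 rose and none fell, where 6.68% of all genes were called higher and 11.1% lower. There the 9 changes ran from 0.15 to 1.12 with a median of 0.51, and the median over all genes was −0.038. Between DH-LMP2A and WT none of the 9 was called by edgeR, where 5.07% of all genes were higher and 7.3% lower. In that comparison 4 of the 9 were higher in DH-LMP2A and 5 lower with a median of −0.07. On library size alone all 9 were higher, 4 of them past the threshold, with a median of 0.28. The whole table shifted too: that fit called 2053 of 14199 genes higher, and the median over all genes was 0.33. With TMM scaling, 1 of the 9 had an unadjusted p under 0.05, where 10.9% of all genes were higher and 15.7% lower at that level. DESeq2 called 1 of the 9, beside 7.21% of all genes that it called higher and 10.6% lower. At an unadjusted p under 0.05, 6 of the 9 were higher in kFRA than in DH-LMP2A and 5 higher than in WT, with none lower in either. Of all genes, 10.3% were higher and 12.1% lower than in DH-LMP2A at that level, and 15.2% higher and 19.8% lower than in WT. The 3 comparisons share libraries in pairs, so their counts are not independent of each other.

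**Figure D1:**
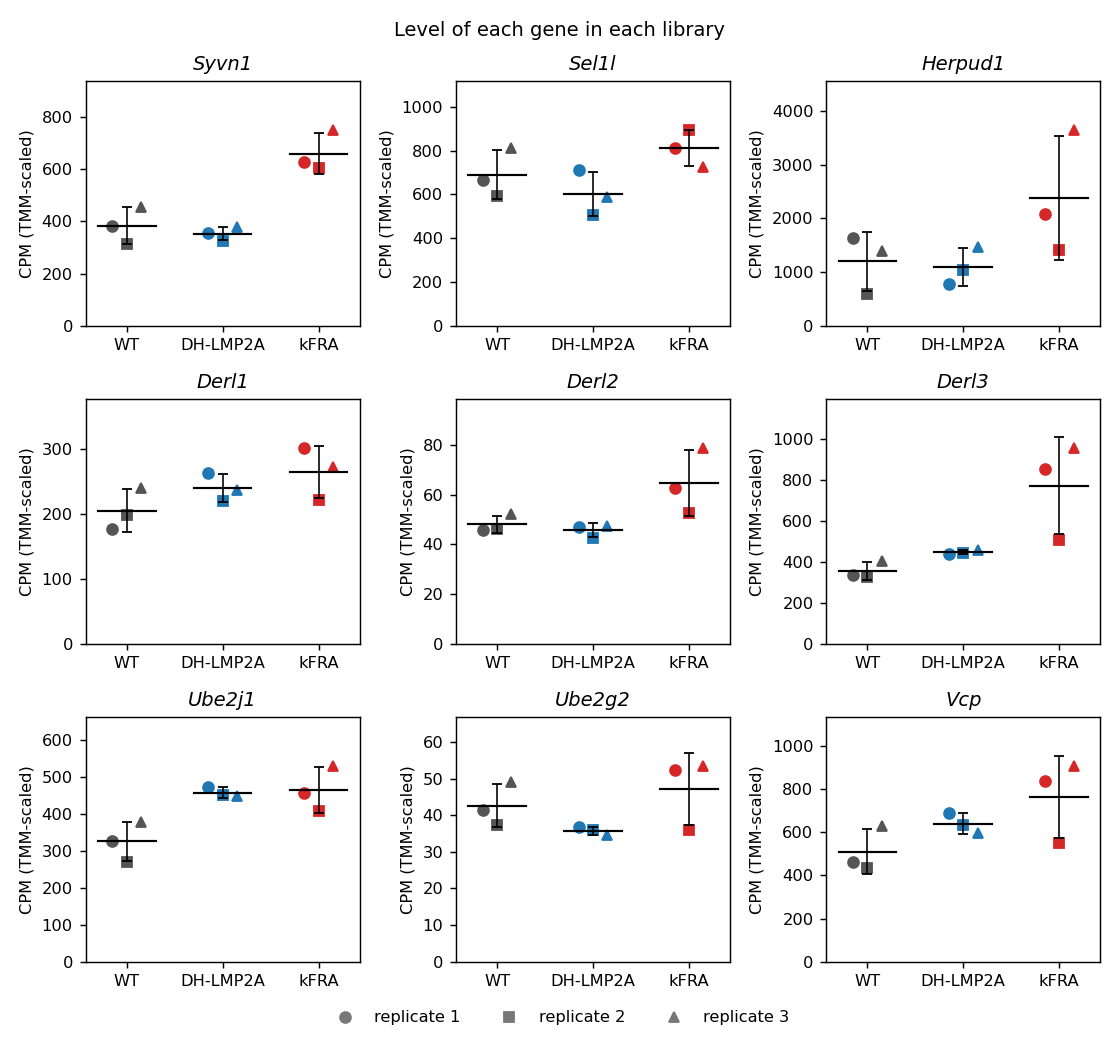
CPM of each of the 9 genes (TMM-scaled, y axis from 0) in each library, by genotype, with bars for the mean and SD of 3 mice and symbols for the replicate number. Syvn1 sits at 604 to 752 CPM in kFRA and no higher than 454 CPM elsewhere, while for Ube2j1 the WT libraries lie below both other genotypes.

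Syvn1, the ligase itself, was called in both comparisons of kFRA. It was at 627, 604 and 752 CPM in kFRA replicates 1 to 3, at 356, 327 and 378 CPM in DH-LMP2A and at 384, 313 and 454 CPM in WT. Each kFRA library thus lay above all 6 others, and the DH-LMP2A and WT libraries overlapped. The level in kFRA (661 ± 79.6 CPM, SD, n = 3) was 1.87-fold that in DH-LMP2A (353 ± 25.5 CPM), a log2 fold change of 0.90 (edgeR adjusted p = 0.0203, standard error, SE, 0.178). It was 1.72-fold that in WT (384 ± 70.6 CPM), with a log2 fold change of 0.79 (edgeR adjusted p = 0.0166, SE 0.177). Between DH-LMP2A and WT it was −0.12 (95% interval −0.52 to 0.28, edgeR adjusted p = 0.746). Syvn1 passed against DH-LMP2A in 1 of the 6 fits that each left out 1 library, the one without kFRA replicate 2. Against WT it passed in 4 of 6, all but those without kFRA replicate 3 (adjusted p = 0.0543) and WT replicate 2 (adjusted p = 0.0666). The gene spans chr19:6046576-6053712 on the plus strand, and 91 of its 4772 exonic bases (1.9%) overlap Mrpl49 on the other strand, which leaves its value uncertain to that extent.

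Sel1l, the scaffold that stabilises Syvn1 and receives its substrates, moved less. It was at 813, 894 and 727 CPM in kFRA, 710, 507 and 588 CPM in DH-LMP2A and 665, 591 and 811 CPM in WT. The kFRA libraries were all above the DH-LMP2A libraries, by a narrow gap between 710 and 727 CPM, and overlapped those of WT. Its log2 fold change was 0.43 against DH-LMP2A (95% interval 0 to 0.86, edgeR adjusted p = 0.223) and 0.24 against WT (−0.19 to 0.67, edgeR adjusted p = 0.396), neither past the threshold. In kFRA replicate 2 Sel1l had its highest value of all 9 libraries, whereas the other 8 genes were lowest there among the kFRA libraries. The gene lies at chr12:91806043-91849157 on the minus strand and overlaps no exon of another gene.

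Herpud1, a membrane protein with a ubiquitin-like domain that recruits further factors to the ligase and is a strong target of the UPR, was the most variable of the 9. It was at 2072, 1406 and 3649 CPM in kFRA, 772, 1036 and 1473 CPM in DH-LMP2A and 1642, 585 and 1384 CPM in WT. The mean in kFRA was 2.17-fold that in DH-LMP2A, yet the lowest kFRA library lay below the highest of both other genotypes. Given this spread between replicates neither difference passed, with a log2 fold change of 1.12 (edgeR adjusted p = 0.192, SE 0.456) against DH-LMP2A and 0.98 (edgeR adjusted p = 0.157, SE 0.454) against WT. Within each genotype the highest library was at 1.91 to 2.81 times the lowest. The SD of its log2 CPM over the 9 libraries was 0.77, larger than that of 83.2% of tested genes. The gene lies at chr8:94386438-94395377 on the plus strand, with no overlapping exon of another gene.

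The derlins are membrane proteins without protease activity, related to rhomboid proteases, that form part of the channel through which substrates leave the ER. Derl3, the one known for its high level in secretory cells, was at 853, 505 and 955 CPM in kFRA, 438, 444 and 456 CPM in DH-LMP2A and 333, 324 and 404 CPM in WT. The 3 genotypes did not overlap, although kFRA replicate 2 lay much closer to DH-LMP2A than to the other kFRA libraries. Against WT the log2 fold change was 1.12 (2.18-fold, edgeR adjusted p = 0.011, SE 0.232), past the threshold in 5 of 6 fits that left out a library. The exception was the fit without WT replicate 2 (adjusted p = 0.0507). Against DH-LMP2A it was 0.79 (edgeR adjusted p = 0.0896, SE 0.230), which did not pass. It passed in 1 of 6 fits that left out a library, the one without kFRA replicate 2 (1.08, edgeR adjusted p = 0.00523). In that fit 11.7% of all genes were called higher in kFRA. For Derl3 in the main fit, DH-LMP2A exceeded WT by 0.33 (95% interval −0.18 to 0.85, edgeR adjusted p = 0.41). Derl3 lies at chr10:75893398-75895941 on the plus strand.

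Derl2, a broadly expressed derlin, was at 62.9, 52.6 and 78.8 CPM in kFRA, 47.1, 42.7 and 47.5 CPM in DH-LMP2A and 45.8, 46.1 and 52.1 CPM in WT. The kFRA libraries were above all others, with kFRA replicate 2 only just above the highest WT library. Neither difference passed: the log2 fold change was 0.50 against DH-LMP2A (edgeR adjusted p = 0.107, SE 0.155) and 0.43 against WT (edgeR adjusted p = 0.0821, SE 0.155). Derl1, the first member of the family linked to retrotranslocation in mammals, was at 302, 223 and 273 CPM in kFRA, 264, 221 and 237 CPM in DH-LMP2A and 177, 199 and 241 CPM in WT. Its libraries overlapped in every comparison. The log2 fold change was 0.14 against DH-LMP2A (95% interval −0.24 to 0.53) and 0.37 against WT (−0.01 to 0.76), with edgeR adjusted p = 0.647 and 0.155. Derl2 lies at chr11:71007164-71019841 and Derl1 at chr15:57869502-57892418, both on the minus strand. Of the exonic bases of Derl2, 2.9% overlap Mis12 on the other strand, and 652 bases of Derl1 have a processed pseudogene copy, Gm35638, of 95.4% identity.

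Of the ubiquitin-conjugating enzymes, Ube2j1 is anchored in the ER membrane and Ube2g2 is cytosolic and brought to the membrane by other proteins. Ube2j1 was at 457, 408 and 530 CPM in kFRA, 474, 451 and 449 CPM in DH-LMP2A and 327, 271 and 378 CPM in WT. Here kFRA and DH-LMP2A overlapped and both lay above every WT library. The log2 fold change against WT was 0.51 in kFRA (edgeR adjusted p = 0.0633, SE 0.168) and 0.49 in DH-LMP2A (edgeR adjusted p = 0.0925, SE 0.168), neither past the threshold, and between kFRA and DH-LMP2A it was 0.02 (95% interval −0.36 to 0.40). Ube2g2 was at 52.4, 35.9 and 53.4 CPM in kFRA, 36.7, 36.0 and 34.5 CPM in DH-LMP2A and 41.5, 37.3 and 49.0 CPM in WT. For this gene kFRA replicate 2 lay among the DH-LMP2A libraries, and DH-LMP2A lay below every WT library. No comparison passed, with log2 fold changes of 0.40 (edgeR adjusted p = 0.206) for kFRA against DH-LMP2A, 0.15 (0.551) for kFRA against WT and −0.25 (0.40) for DH-LMP2A against WT. Ube2j1 lies at chr4:33031416-33052363 and Ube2g2 at chr10:77622275-77645993, both on the plus strand. Of the exonic bases of Ube2g2, 10.3% overlap Gm49325 and Mir1930 on the same strand, so its value is uncertain.

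Vcp, the ATPase that draws ubiquitinated proteins out of the membrane and serves many other pathways, was at 837, 548 and 907 CPM in kFRA, 690, 635 and 595 CPM in DH-LMP2A and 463, 436 and 629 CPM in WT. Replicate 2 was below every DH-LMP2A library and inside the WT range, and the other kFRA libraries were above all 6. The log2 fold change was 0.26 against DH-LMP2A (edgeR adjusted p = 0.525, SE 0.226) and 0.58 against WT (edgeR adjusted p = 0.101, SE 0.226). Vcp lies at chr4:42979963-43000507 on the minus strand. Its processed pseudogene Vcp-rs, 99.0% identical over 2421 bases, held 1337 to 2499 counts, 14.2 to 16.3% of those of Vcp, so reads may have been split between them. A further 7.3% of the exonic bases of Vcp overlap 1700022I11Rik on the other strand.

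**Figure D2:**
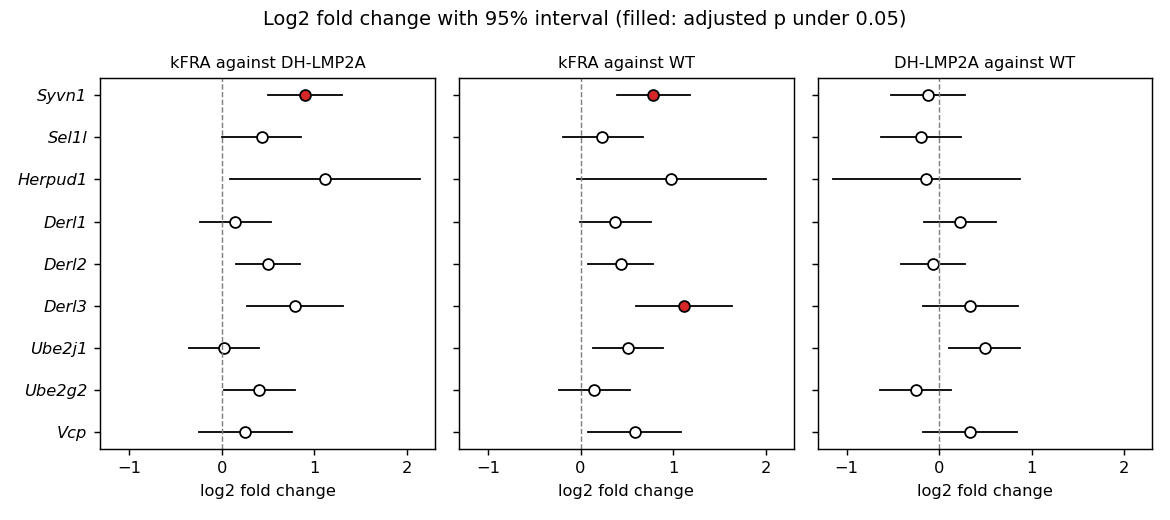
Log2 fold change of each gene with its 95% interval in the 3 comparisons, filled where the adjusted p is under 0.05 in edgeR's quasi-likelihood test. In both comparisons of kFRA all 9 points lie to the right of 0 and the filled points are Syvn1 and, against WT, Derl3; between DH-LMP2A and WT the points lie between −0.25 and 0.49 and none is filled.

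The libraries did not overlap for 4 of the 9 genes between kFRA and DH-LMP2A (Syvn1, Sel1l, Derl2, Derl3), where 25.6% of all tested genes showed such a separation. Between kFRA and WT the 4 were Syvn1, Derl2, Derl3 and Ube2j1, against 34.3% of all genes. Between DH-LMP2A and WT there were 3 (Derl3 and Ube2j1 higher and Ube2g2 lower in DH-LMP2A), against 36.6% of all genes. Each of the 9 genes that separated in a comparison of kFRA was higher in kFRA. Of all 14199 genes, 1648 separated and were higher in kFRA than in DH-LMP2A, and 2011 than in WT.

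Within kFRA, replicate 2 stood apart. It was the lowest kFRA library for 8 of the 9 genes, and replicate 3 the highest for 7. Replicate 3 exceeded every DH-LMP2A library in 9 of 9 genes and replicate 1 in 8, but replicate 2 in 4. Among the WT libraries replicate 2 was lowest for 7 of 9 genes and replicate 3 highest for 8. Part of this order depended on the TMM scaling: on library size alone kFRA replicate 2 was lowest for 4 genes, WT replicate 3 highest for 2, and WT replicate 2 still lowest for 7. The TMM factor was 1.223 in kFRA replicate 2, the largest of the 9, with 29.2% of counts from immunoglobulin genes, against 0.947 and 0.895 with 44.0 and 45.4% in the other kFRA libraries. In WT replicate 3 it was 0.779, the smallest, with 55.4% immunoglobulin counts. Replicate 2 was also the kFRA library with a high level of Xist, the transcript of the inactive X chromosome, at 734 CPM against 1.30 and 3.14 CPM. Xist was high as well in DH-LMP2A replicates 1 and 2 (924 and 882 CPM) and WT replicates 1 and 3 (783 and 495 CPM). Ddx3y, a gene of the Y chromosome, was at 0 in all of these libraries and at 40.8 to 55.8 CPM in the others. Both sexes thus occurred in each genotype, and their mix differed between kFRA and the other genotypes. With the immunoglobulin genes left out of the scaling and the fit, 1 of the 9 genes passed against DH-LMP2A and 3 against WT. Of all 13864 genes in that fit, 239 were called higher in kFRA than in DH-LMP2A and 1121 higher than in WT. Without kFRA replicate 2, 4 of the 9 genes passed against DH-LMP2A (Syvn1, Derl2, Derl3, Ube2g2) and 6 against WT (Syvn1, Derl1, Derl2, Derl3, Ube2j1, Vcp). The calls rose over the whole table as well: in these fits 11.7% of 14518 genes were called higher in kFRA than in DH-LMP2A, and 18.8% higher than in WT.

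When log2 CPM of Xist entered the model the same number of genes passed, 1 against DH-LMP2A and 2 against WT. Of all 14199 genes, 157 were called higher in kFRA than in DH-LMP2A and 717 higher than in WT in that fit. With a covariate of the markers of other spleen cells none of the 9 passed in edgeR, while the changes were of similar size: Syvn1 was at 0.94 against DH-LMP2A (adjusted p = 0.322) and 0.81 against WT (adjusted p = 0.0684), and Derl3 at 1.07 against WT (adjusted p = 0.0675). Of all genes 0.338% and 2.12% were called higher in those 2 comparisons. A covariate of the erythroid markers alone left the call of Syvn1 against DH-LMP2A and removed both calls against WT, with Syvn1 at 0.63 (adjusted p = 0.257) and Derl3 at 1.15 (adjusted p = 0.123), in a fit that called 1.29% of all genes higher. The summed erythroid and myeloid markers did not overlap between WT and either other genotype, and the summed B cell markers did not overlap between kFRA and the others. Where the markers follow genotype in this way, these fits cannot tell the part of other cells from that of genotype. It was not tested otherwise.

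To compare levels between genes, CPM was divided by the length of the merged exons in kilobases. The order of these levels was nearly the same in every library. Herpud1 was first and Derl3 second in all 9, Ube2g2 was eighth and Derl2 last, and the other 5 changed places between the third and the seventh rank. In kFRA the levels were 1020 ± 494 CPM per kilobase for Herpud1 and 577 ± 177 for Derl3 (SD, n = 3), followed by Vcp at 157 ± 39.2, Syvn1 at 138 ± 16.7, Ube2j1 at 132 ± 17.4, Sel1l at 94.9 ± 9.80 and Derl1 at 84.5 ± 12.8. Those 5 neighbours overlapped in part: Vcp, Syvn1 and Ube2j1 did not differ beyond their spread, nor did Sel1l and Derl1. Ube2g2, at 19.4 ± 4.04, and Derl2, at 8.04 ± 1.64, were clearly lower. In WT the same 9 genes ran from 516 ± 236 (Herpud1) and 265 ± 32.7 (Derl3) to 5.96 ± 0.442 (Derl2) CPM per kilobase, and in DH-LMP2A from 469 ± 152 and 334 ± 6.77 to 5.69 ± 0.330. The long annotated exons of Derl2, 8049 bases, lower its level per kilobase if most transcripts end earlier, which was not tested.

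**Figure D3:**
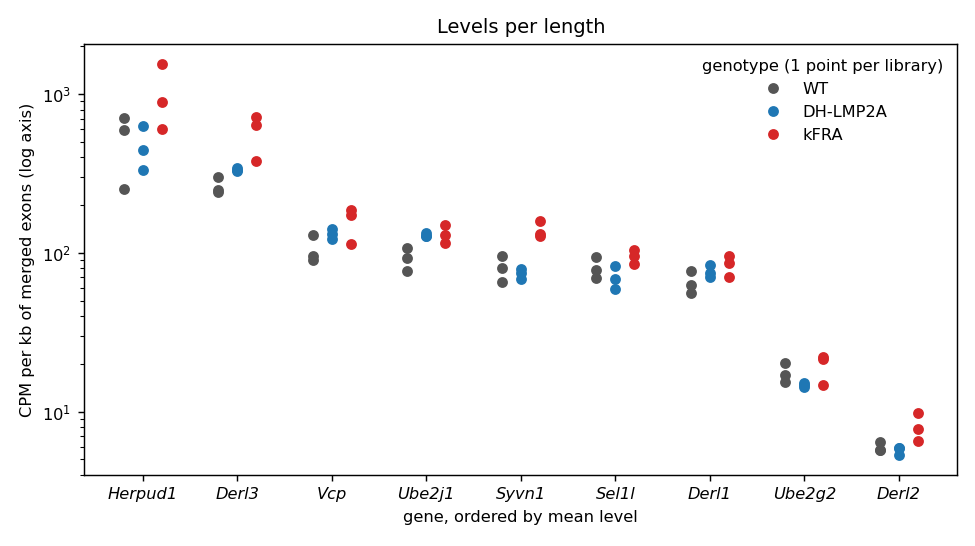
CPM per kilobase of merged exons (log axis) for each gene, ordered by its mean over the 9 libraries, with 1 point per library coloured by genotype. Herpud1 and Derl3 stand above the other 7 genes, and Ube2g2 and Derl2 below.

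Set against all tested genes, Herpud1 and Derl3 each had a higher level per kilobase than at least 98.1% of genes in every library, and Vcp, Ube2j1, Syvn1, Sel1l and Derl1 a higher level than at least 94.9%. Derl2 exceeded 59.3 to 74.9% of genes. Summed over the 9, the level was 2180, 1532 and 2977 CPM per kilobase in kFRA, 1198, 1253 and 1466 in DH-LMP2A and 1378, 879 and 1426 in WT. Each kFRA library lay above all 6 others. Herpud1 alone made up 27.6 to 52.5% of the sum, and without it the sums were 1292, 929 and 1413 in kFRA, 867, 809 and 834 in DH-LMP2A and 674, 628 and 832 in WT, again with no overlap between kFRA and the rest.

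Ratios of genes within a library do not depend on the scaling between libraries, and 5 were compared by exact 2-sided permutation tests. With 3 against 3 libraries the smallest p is 0.1, so none of the 15 tests could pass, and adjusted over the 15 the lowest was 0.167. The ratio of Syvn1 to Sel1l per kilobase was 1.38, 1.21 and 1.85 in kFRA, 0.898, 1.15 and 1.15 in DH-LMP2A and 1.04, 0.949 and 1 in WT. Each kFRA library thus had a higher ratio of Syvn1 to Sel1l than any other library. The absolute size of this ratio depends on the exon lengths used, 4772 bases for Syvn1 and 8555 for Sel1l. On the log2 scale the means differed by 0.46 from DH-LMP2A and by 0.55 from WT (exact permutation test, p = 0.1 for each). Derl3 to Derl1 behaved alike, at 6.65, 5.34 and 8.25 in kFRA, 3.90, 4.74 and 4.54 in DH-LMP2A and 4.43, 3.85 and 3.95 in WT. The ratio of Derl3 to Derl1 was thus higher in each kFRA library than in any other.

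Derl3 to Derl2 was 81.7, 57.8 and 73.0 in kFRA, 56.0, 62.7 and 57.8 in DH-LMP2A and 43.8, 42.4 and 46.7 in WT, so WT lay below both other genotypes, which overlapped. Ube2j1 to Ube2g2 separated all 3 genotypes, at 6, 7.82 and 6.82 in kFRA, 8.90, 8.62 and 8.97 in DH-LMP2A and 5.43, 5 and 5.32 in WT. The DH-LMP2A values of this ratio lay within a narrow band, and its mean log2 difference from WT was 0.75 (exact permutation test, p = 0.1). It was the only one of the 5 ratios that was highest in DH-LMP2A. Herpud1 to Syvn1 overlapped in all comparisons (exact permutation test, p = 0.7 to 0.9), ranging from 3.83 in WT replicate 2 to 9.93 in kFRA replicate 3.

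**Figure D4:**
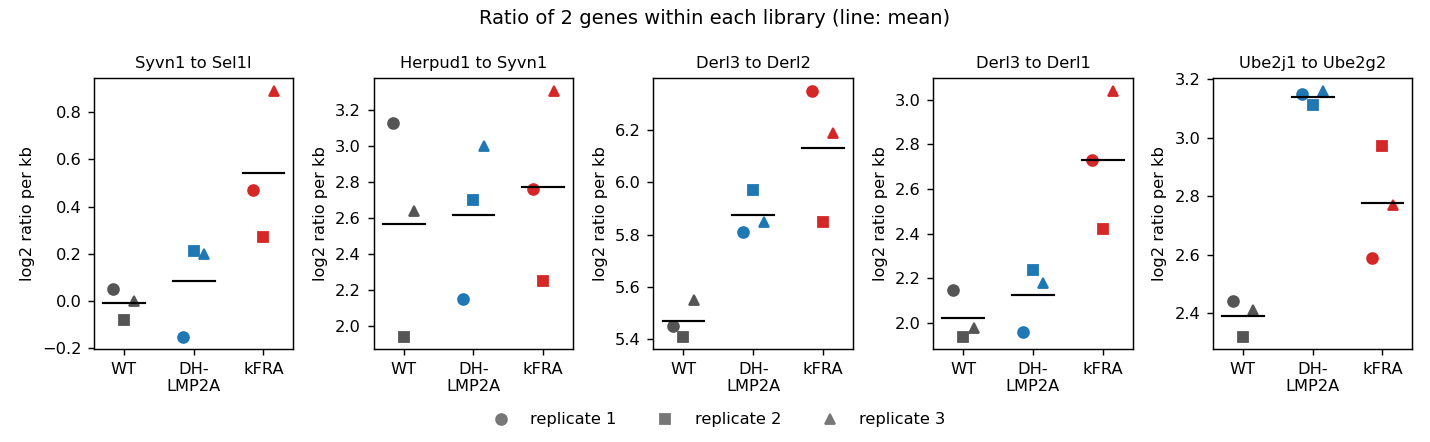
Log2 ratio of CPM per kilobase of 2 genes within each library, by genotype, with lines for the mean of 3 libraries. The kFRA libraries lie above the others for Syvn1 to Sel1l and Derl3 to Derl1, the WT libraries lie below the others for Derl3 to Derl2, and the 3 genotypes are separate for Ube2j1 to Ube2g2.

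Of 42 other ERAD genes in the table, all passed the filter. In kFRA against DH-LMP2A none of them rose and 2 fell, where 1.73% of all genes were called higher and 3.3% lower. These were Erlec1, a lectin that delivers glycoproteins to Sel1l, with a log2 fold change of −0.85 (edgeR adjusted p = 0.0208, SE 0.168), and Rad23b, a carrier of ubiquitinated proteins to the proteasome, with −0.63 (edgeR adjusted p = 0.0487, SE 0.152). At an unadjusted p under 0.05 there were 6 higher and 7 lower, beside 10.3% and 12.1% of all genes. DESeq2 called 1 higher and 4 lower, beside 4.16% and 5.74% of all genes. The median of the 42 was −0.018. Erlec1 passed in 2 and Rad23b in 1 of the 6 fits that left out a library, and neither passed with the covariate of other spleen cells (adjusted p = 0.45 and 0.639).

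In kFRA against WT, 5 of the 42 rose and 1 fell, with a median of 0.19, where 6.68% of all genes were called higher and 11.1% lower. Those that rose were Edem2 (1.03, edgeR adjusted p = 0.0194), a factor in the trimming of mannose from substrates, Sdf2l1 (0.83, adjusted p = 0.0309), an ER chaperone partner, Erlec1 (0.76, adjusted p = 0.0151), the related lectin Os9 (0.58, adjusted p = 0.0392) and the deubiquitinase Usp19 (0.45, adjusted p = 0.0377). The gene that fell was March6, another ubiquitin ligase of the ER membrane (−0.54, edgeR adjusted p = 0.045). When 1 library was left out, Erlec1 passed in 4 of 6 fits, Edem2, Os9 and Sdf2l1 in 2 and Usp19 and March6 in 1, and none of the 6 passed with the covariate of other spleen cells or of erythroid markers. In DH-LMP2A against WT, 5 rose and none fell in edgeR, with none lower at an unadjusted p under 0.05 and none called lower by DESeq2, where edgeR called 5.07% of all genes higher. They were Erlec1 (1.61, adjusted p = 0.000394), Edem2 (1.51, 0.00418), Os9 (1.02, 0.00424), Sdf2l1 (0.84, 0.0356) and Edem1 (0.76, 0.0435). Erlec1, Edem2 and Os9 passed in 6 of 6 fits that left out a library, while Sdf2l1 and Edem1 each passed in 1 and did not pass with the covariate of other spleen cells (adjusted p = 0.0897 and 0.104). With the erythroid covariate none of the 5 passed, and 0.43% of all genes were called higher.

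Grouped by role, the 9 genes of substrate recognition and unfolding held all of the rises in DH-LMP2A and 4 of the 5 in kFRA against WT. In DH-LMP2A against WT 8 of these 9 were higher, with a median of 0.76, while the median of the ligase complex genes was −0.07, both with TMM scaling. On library size alone the median of the ligase complex genes was 0.28 and that of all genes 0.33. The median of the recognition genes on that scale is not given, so 0.76 and 0.28 are not on the same scale. In kFRA against DH-LMP2A 8 of these 9 were lower (median −0.31), and the 9 ligase complex genes were all higher (median 0.43). For example, Erlec1 was at 105.6 to 118.4 CPM in kFRA, 169.2 to 228.2 CPM in DH-LMP2A and 56.1 to 79.3 CPM in WT, so kFRA lay between the others. Os9 had the same order, at 464 to 552, 617 to 741 and 310 to 400 CPM, and so did Edem2, at 887 to 1095, 1192 to 1478 and 356 to 655 CPM. The difference between the groups of genes was not tested. The summed plasma cell markers, mostly Jchain, were also highest in the DH-LMP2A libraries, and their part in these levels was not tested. Of the 8 markers, edgeR called 3 higher and 1 lower in DH-LMP2A than in WT, beside 5.07% and 7.3% of all genes. It called 2 higher and 1 lower in kFRA than in WT, beside 6.68% and 11.1% of all genes, and none in kFRA against DH-LMP2A. The remaining 18 membrane ligases, adaptors and scaffolds and 13 cytosolic factors had medians between 0.02 and 0.13 in all 3 comparisons. The 2 other E2 enzymes had a median of 0.48 in kFRA against DH-LMP2A, 0.35 in kFRA against WT and −0.13 in DH-LMP2A against WT. These medians had the same signs as those of the ligase complex genes, and neither enzyme passed the threshold in any comparison.

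**Figure D5:**
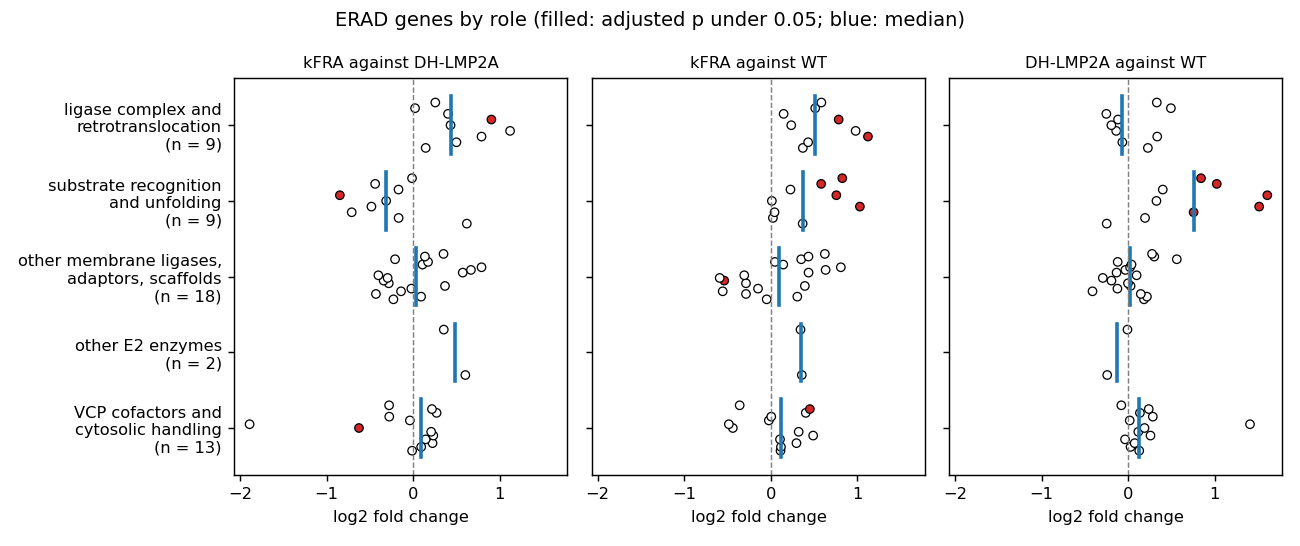
Log2 fold changes of 51 ERAD genes by role in the 3 comparisons, 1 point per gene, filled where the adjusted p is under 0.05 in edgeR's quasi-likelihood test, with a blue bar for the median of each role. The recognition genes have a median of −0.31, 0.37 and 0.76 in the 3 panels from left to right, and the ligase complex genes 0.43, 0.51 and −0.07, all with TMM scaling. On library size alone, which is not drawn, the last of these is 0.28, beside a median of 0.33 over all genes.

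Xbp1, which encodes a UPR factor known to drive ERAD genes, was at 2324, 2040 and 1853 CPM in kFRA, 2620, 1971 and 2155 CPM in DH-LMP2A and 1166, 1944 and 2033 CPM in WT. Its log2 fold change was −0.12 in kFRA against DH-LMP2A (95% interval −0.68 to 0.44) and 0.27 against WT (−0.28 to 0.83), and the counts do not separate its spliced form. Hspa5, the main ER chaperone and a UPR target, was at 4698, 3409 and 4345 CPM in kFRA, 2581, 2008 and 2336 CPM in DH-LMP2A and 1981, 1689 and 3060 CPM in WT. As for Syvn1, each kFRA library lay above all others, with log2 fold changes of 0.85 against DH-LMP2A (edgeR adjusted p = 0.111, SE 0.267) and 0.89 against WT (edgeR adjusted p = 0.0482, SE 0.267). The call against WT held in 2 of the 6 fits that left out a library, and not with the covariate of other spleen cells (adjusted p = 0.201).

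For the 3 most variable of the 9 genes, the closest patterns were sought among 9636 genes as the smallest root mean square difference of centred log2 CPM over the 9 libraries. Nearest to Syvn1 were Pim1 (0.12), Fam132a (0.12) and Gm15487 (0.15). Nearest to Derl3 were Smim11 (0.10), Rpp21 (0.10) and BC029214 (0.11). Herpud1 had no close neighbour, the nearest being Per1 (0.34), Ccdc134 (0.35) and Dxo (0.37). Pim1, which encodes a kinase, had means of 471, 261 and 271 CPM in kFRA, DH-LMP2A and WT, so its means stood in nearly the same proportions as those of Syvn1.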

How the data were processed

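The deposited values are the authors' raw counts of reads for each gene, not normalized, in the layout that featureCounts writes, with merged exon coordinates, per the file headers. The submitters' processing notes name STAR 2.4.0a, featureCounts, Subread 1.5.0-p3, DESeq2 and GRCm38 (mm10). Libraries were polyadenylated and strand-specific, per the labels' protocols. The strand setting of the counting and how reads with several matches were handled are not given in the sources used here, so genes that overlap others or have similar copies are uncertain. Of the table's symbols 44202 occur in GENCODE M21, and 99.75% of these overlap that gene there. Copies were sought with BLAST+ 2.17.0 (at least 300 aligned bases, 90% identity).

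The counts of all 9 libraries were fitted with edgeR 4.0.16 (R 4.3.3): filterByExpr, TMM scaling, 1 coefficient per genotype, 2-sided quasi-likelihood F tests, and Benjamini-Hochberg adjustment over the 14199 genes tested. The SE is the log2 fold change divided by the square root of F, and 95% intervals use the t quantile of the fit. CPM values are TMM-scaled. The model was tested on simulated data.

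Alternatives were DESeq2 size factors, library size alone, leaving out immunoglobulin genes (258 tested), no filter, a mean of at least 5 CPM, a replicate block, covariates (31 markers of other spleen cells, 7 erythroid markers, or Xist), only the 6 libraries compared, DESeq2 1.42.0, an adjusted p under 0.01, a pseudocount of 0.5 counts in the ratios, and leaving out each library. The 9 genes and all lists were chosen with earlier results of these data known. Named genes are the 9, the 5 other ERAD genes per direction with the smallest p among those called, the 3 nearest patterns of the 3 most variable genes, Hspa5 and Xbp1. Titles number the mice, and correlations of same-numbered libraries ran from −0.211 to 0.196. Differently numbered libraries were not compared, so these values cannot decide whether the numbers pair the mice. The main fit did not pair them. No 2 replicates agreed within sampling noise (chi-square per degree of freedom 17.3 to 164). Intervals and limits of detection cover counting error or the spread of these mice only.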

Additional observations from a re-analysis of the deposited data

How the results depend on the processing

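The cause of each change below was not tested, except that fewer libraries or a stricter threshold enter some fits by construction. For the 9 genes, the count past the threshold in kFRA against DH-LMP2A (1) was 0 with the covariate of other spleen cells and at an adjusted p under 0.01, 3 with DESeq2, and 0 to 4 when 1 library was left out, 4 being without kFRA replicate 2 and 0 in the other 5 fits. Against WT (2) it was 6 on library size alone, 0 with either covariate of other cells and at 0.01, 5 with DESeq2, and 0 to 6 when 1 library was left out, 0 being without WT replicate 2 and 1 without kFRA replicate 3. In DH-LMP2A against WT (0) it was 4 on library size alone and 1 with DESeq2. The other ERAD genes past the threshold in kFRA against DH-LMP2A (2) numbered 1 with DESeq2 size factors, library size alone, no immunoglobulin genes, a mean of at least 5 CPM, the Xist covariate or only the 6 libraries, 0 with either covariate of other cells and at 0.01, 5 with DESeq2, and 0 to 14 when 1 library was left out. Against WT (6) they numbered 18 on library size alone, 3 with no filter, 0 with either covariate and at 0.01, 2 with Xist or the 6 libraries, 12 with DESeq2, and 0 to 23 when 1 library was left out. In DH-LMP2A against WT (5) they numbered 16 on library size alone, 3 with other cells and at 0.01, 0 with the erythroid covariate, and 3 to 5 when 1 library was left out. Over all genes the counts were 713, 2523 and 1756 in the 3 comparisons. They were 205 and 1133 in the first and second with other cells, 447, 745 and 252 with erythroid markers, 306, 975 and 765 at 0.01, 1405 in the first with DESeq2, 1094 in the third at 5 CPM, and 352 to 3299, 1271 to 5632 and 932 to 1408 when 1 library was left out. In kFRA against WT, DESeq2 called 3515 of all 14199 genes, 1538 of them higher in kFRA. Library size alone gave 488, 3280 and 2571 calls over all genes. It gave all genes a median of −0.14, 0.17 and 0.33 in place of −0.005, −0.038 and −0.008, and moved the share of calls that were higher from 34.4, 37.6 and 41% to 26, 72 and 79.9%. It turned Derl1 (−0.01) and Ube2j1 (−0.13) in kFRA against DH-LMP2A and Syvn1 (0.23), Sel1l (0.16), Herpud1 (0.19), Derl2 (0.28) and Ube2g2 (0.10) in DH-LMP2A against WT, where it moved the log2 difference of the summed level from 0.12 to 0.46. Ube2j1 in kFRA against DH-LMP2A was −0.05 with other cells and −0.08 to 0.17 when 1 library was left out. In DH-LMP2A against WT the latter range was −0.47 to 0.15 for Herpud1 and −0.25 to 0.02 for Syvn1. With the replicate block, Ube2j1 passed in kFRA against WT (0.52, edgeR adjusted p = 0.0483) and no other call among the 9 changed.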
